A study of Mus musculus with 30 samples.

Results

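The genes that distinguished kidney organoids after 21 days of culture from the renal progenitors they were made of were examined here, in 6 of the 30 arrays of the study: 3 arrays of 21D organoids and 3 of progenitors. All of these cells came from 1 mouse embryonic stem cell (ESC) line, 1B10, which was maintained on mouse embryonic fibroblast feeder cells. Progenitors were grown as a monolayer through mesoderm and intermediate mesoderm and ended in serum-free medium with Bmp7 and Fgf2. The 21D organoids were progenitors that had been dissociated, aggregated on a porous filter at the air and medium interface with serum, exposed overnight to the ROCK inhibitor Y27632 and for a day to the Wnt agonist CHIR99021 with Bmp7, and then left in serum-containing medium alone. Growth factors, serum, dimension, substrate and time therefore differed together between the groups and cannot be told apart. The labels do not say whether the 3 replicates of a group were separate differentiations. The p-values therefore measure only a spread between replicate arrays, pooled over all 30 arrays of the study, which may be technical. The small number of compared arrays limits the precision.

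Mammalian nephrons form when Six2- and Cited1-expressing mesenchymal progenitors condense around the tips of the Ret-expressing ureteric bud, become epithelial renal vesicles under Wnt signalling, and are then patterned, in part by Notch, into podocytes, proximal and distal tubules. Fgf signalling sustains the progenitors, while stromal cells marked by Foxd1 surround them. Proximal tubules are known for transporters such as the megalin receptor Lrp2 and the organic ion carriers of the Slc22 family, and collecting ducts for the water channel Aqp2.

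Values are log2 expression levels of 23986 genes from Affymetrix whole-transcript arrays, on which a difference of 1 is a doubling. Olfactory and vomeronasal receptor genes (1394 rows), which these tissues are not known to use, had a 95th percentile between 5.08 and 5.64 in the 6 arrays, and a gene below that level is described as dim. Arrays correlated at 0.973 to 0.981 within 21D organoids, at 0.957 to 0.968 within progenitors and at 0.94 to 0.96 between the groups. Progenitors were the most variable of the 10 groups of the study: their 3 arrays had a standard deviation (SD) over 1 in 575 genes, against 228 genes in 21D organoids. Among those 228 genes the highest array was 21D organoid 2 in 111, whereas among the 575 progenitor genes the highest was progenitor 3 in 254 and the lowest was progenitor 3 in 219. Progenitor 1 was the only one of the 6 arrays from batch 1 of the labels.

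In total, 2550 genes (10.6% of those tested) were significantly different between 21D organoids and progenitors at an adjusted p under 0.05 in limma, of which 1564 (6.52%) were upregulated and 986 (4.11%) were downregulated in 21D organoids. The upregulated genes included 104 with a log2 change of at least 2, and the downregulated genes included 29. The shares of 6.52% and 4.11% are the background for the list counts below. The arrays of the 2 groups did not overlap in 1376 of the 1564 upregulated and 756 of the 986 downregulated genes. A lack of overlap given below is therefore usual for a called gene and adds little to the call. The median log2 change of all genes was -0.02. This number of calls rests on the spread shared over all 10 groups: with the 6 arrays fitted alone, 103 genes were called without a batch term and 131 with one, and with the 12 progenitor and organoid arrays 987 were called. In that 12-array fit, the lists described below had 11 neuronal, 7 endodermal, 4 epithelial junction, 4 Notch and 3 endothelial genes called higher and 10 acute phase genes called lower. With the 6 arrays alone, without and with a batch term, 4 and 2 neuronal, 4 and 4 endodermal and 1 and 1 Notch genes were called higher. In those fits, 3 and 6 acute phase and 5 and 4 Fgf target genes were called lower. No epithelial junction, skeletal muscle, macrophage, unfolded protein or amino acid stress gene was called in either. The total number of calls was 1550 without 21D organoid 1 and 1393 without progenitor 2. The fitted changes given below allow for batch and can differ slightly from the difference between the array means. In these bulk samples, fewer cells of a type and less RNA per cell cannot be told apart.

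**Figure D1:**
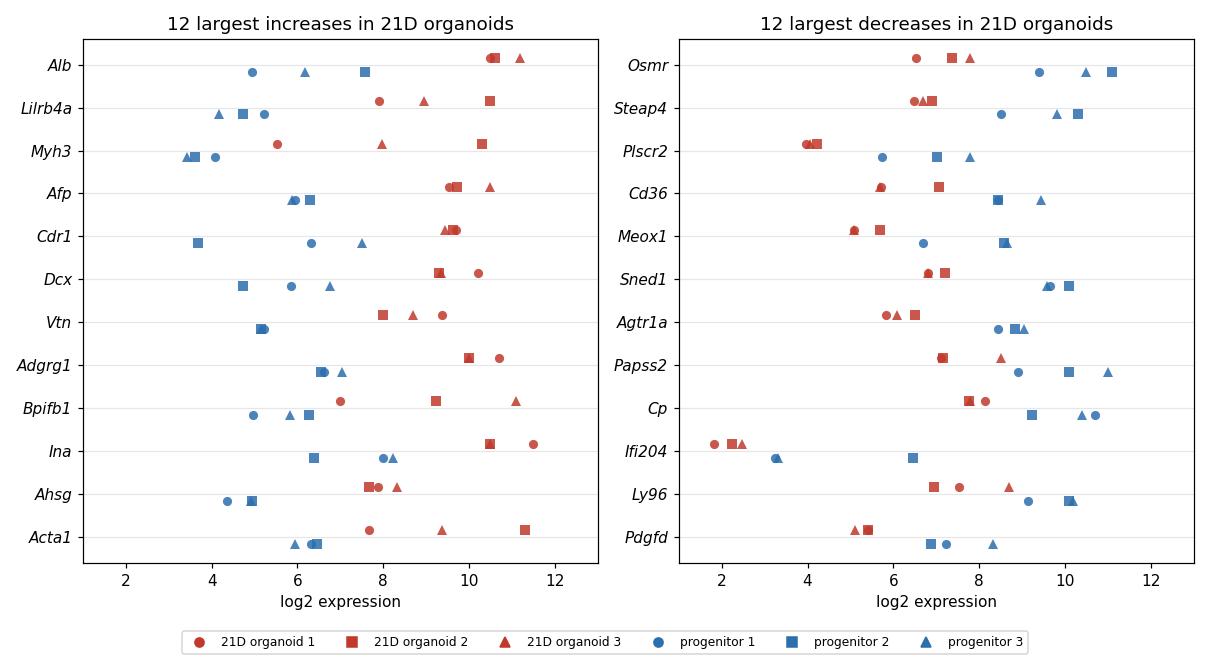
Log2 expression (horizontal axes) of 12 named genes significantly higher (left) and 12 significantly lower (right) in 21D organoids, 1 point per array. The 21D organoids are in red, drawn above progenitors in blue. The genes had the largest changes among called genes whose groups did not overlap, so the lack of overlap was fixed by the choice. Meox2 (log2 change -2.72) and Saa3 (-2.58) were left out because their groups overlapped. Myh3, Bpifb1 and Acta1 were spread over several units among the 21D organoids, whereas Alb, Dcx and Adgrg1 were high in all 3.

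Named genes with the largest changes were taken only from called genes whose groups did not overlap, so their lack of overlap was fixed by the choice. The 12 with the largest increases included Alb, Afp and Ahsg of the liver, Dcx and Ina of neurons, Myh3 and Acta1 of muscle, and the myeloid receptor gene Lilrb4a. Alb, which encodes serum albumin, measured 10.5, 10.6 and 11.2 in the 21D organoids, against 4.94, 7.57 and 6.17 in the progenitors, a 22.9-fold increase (log2 change 4.52 ± 0.93 SE, adjusted p = 0.0024). Afp, its fetal counterpart, measured 9.53, 9.72 and 10.5 in the 21D organoids, against 5.95, 6.3 and 5.88 in the progenitors (log2 change 4.13 ± 0.64, adjusted p = 0.000145). Both genes were high in every 21D organoid array. Ahsg, another liver plasma protein, changed by 3.22 ± 0.44 and Vtn, which encodes the adhesion protein vitronectin, by 3.54 ± 0.41. Afp averaged 5.51 in 8D organoids and 7.68 in 14D organoids, and 7.13 in E13.5 kidneys. Of 29 genes of endoderm, liver and gut, 11 (37.9%, background 6.52%) were significantly higher in 21D organoids and none was lower. The median log2 change was 0.73. Their mean level was 6.31, 6.59 and 7.15 in the 21D organoids, against 5.66, 5.93 and 5.46 in the progenitors. Without 21D organoid 3, the highest array, 7 of them were called. The mucosal protein gene Bpifb1 was likewise highest in 21D organoid 3, with 6.99, 9.23 and 11.1 in the 21D organoids, against 4.97, 6.26 and 5.82 in the progenitors.

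Neuronal genes formed the group with the most calls. Of 28 genes, 20 were significantly upregulated in 21D organoids and none was downregulated, with a median log2 change of 1.51 (background 6.52% upregulated). Dcx, which encodes the microtubule-binding protein doublecortin of migrating neurons, measured 10.2, 9.31 and 9.35 in the 21D organoids, against 5.84, 4.74 and 6.75 in the progenitors, a 14.4-fold increase (log2 change 3.85 ± 0.46, adjusted p = 9.57e-06). Ina, a neuronal intermediate filament gene, measured 11.5, 10.5 and 10.5 in the 21D organoids, against 7.99, 6.38 and 8.22 in the progenitors (log2 change 3.29 ± 0.45, adjusted p = 4.41e-05). Tubb3, the neuronal beta-tubulin gene, measured 11.1, 10.1 and 10.1 in the 21D organoids, against 7.82, 6.87 and 8.95 in the progenitors (log2 change 2.72 ± 0.47). For each of these 3 genes 21D organoid 1 was the highest array and progenitor 2 was the lowest. The other upregulated members included the proneural factors Neurog1, Neurog2 and Neurod1, the RNA-binding proteins Elavl3, Elavl4 and Rbfox3, and enzymes and transporters of transmitters (Th, Gad2 and Slc17a6). The mean level of the list was 8.42, 7.7 and 7.75 in the 21D organoids, against 6.55, 5.73 and 7.05 in the progenitors, and averaged 6.47 in 8D organoids and 7.74 in 14D organoids. In E13.5 kidneys it averaged 5.99. Without 21D organoid 1, and likewise without progenitor 2, 12 of the 28 genes were called.

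Adgrg1, an adhesion receptor gene expressed in neural progenitors among other cells, was 10.8-fold higher, with 10.7, 10 and 10 in the 21D organoids, against 6.63, 6.54 and 7.04 in the progenitors (log2 change 3.43 ± 0.29, adjusted p = 1.54e-07). Cdr1, whose locus gives rise to a brain-enriched circular RNA, measured 9.7, 9.62 and 9.43 in the 21D organoids, against 6.31, 3.67 and 7.51 in the progenitors. Neither gene overlapped between the groups. Adgrg1 also averaged 10.7 in adult kidneys. Among imprinted genes, Nnat, which encodes the brain protein neuronatin, rose by 2.39 ± 0.48 and Usp29 by 2.01 ± 0.39. Olig2, a spinal cord progenitor factor, and Erbb3, a receptor of the neural crest lineage among other cells, were also upregulated, by 1.49 ± 0.41 and 1.79 ± 0.32. Erbb3 averaged 7.73 in 21D organoids, 7.84 in E13.5 kidneys, 9.39 in adult kidneys and 8.11 in ESCs. The call of Olig2 was lost without 21D organoid 1 (adjusted p = 0.143) and without progenitor 2 (0.0928). Of 22 genes of glia and neural crest, 4 were higher and 2 were lower, with 1 higher without 21D organoid 1 or progenitor 2 and 7 without progenitor 1.

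Rows of microRNA genes and their host transcripts (511 in all) had 12 significant increases and 10 decreases, or 2.35% and 1.96%, below the background shares of 6.52% and 4.11%, and these arrays read precursors or hosts rather than the mature strand. Mir124-2hg and Mir124a-1hg, the host transcripts of the neuron-enriched miR-124, measured 7.22, 6.91 and 7.2 and 7.12, 6.52 and 6.37 in the 21D organoids, against 4.96, 4.77 and 4.84 and 5.15, 4.79 and 4.49 in the progenitors. Their log2 changes were 2.28 ± 0.24 (adjusted p = 2.51e-06) and 1.99 ± 0.26 (adjusted p = 2.7e-05), and neither overlapped between the groups. The precursor row Mir124a-3 passed the test (adjusted p = 0.0431) but was dim in all 6 arrays (1.87 to 2.1 in the 21D organoids, against 1.2 to 1.41 in the progenitors). Mir124a-2 did not pass (adjusted p = 0.138). Mir18b, a member of the X-linked cluster related to miR-17, measured 5.81, 4.38 and 4.87 in the 21D organoids, against 4.81, 3.12 and 3.22 in the progenitors (log2 change 1.36 ± 0.42, adjusted p = 0.0369). It averaged 6.63 in 8D organoids, the groups overlapped, and the call was lost without any one of 21D organoids 1 and 3 and progenitors 2 and 3 (adjusted p = 0.204, 0.0637, 0.209 and 0.126). Mir18, its counterpart in the autosomal cluster, measured 6.55, 6.11 and 6.37 in the 21D organoids, against 5.58, 5.68 and 5.94 in the progenitors (adjusted p = 0.239). Their mature strands in RefSeq (GRCm38.p6) are shown because they share a seed, bases 2 to 8, printed in capitals.
miR-18b-5p (chrX:52742381-52742403, minus strand): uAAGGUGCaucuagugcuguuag
miR-18a-5p (chr14:115043867-115043889, plus strand): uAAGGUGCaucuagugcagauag
Among the decreases, Mir143, known from smooth muscle and fibroblasts, measured 5.89, 6.06 and 5.97 in the 21D organoids, against 6.39, 6.73 and 7.51 in the progenitors (log2 change -0.95 ± 0.21, adjusted p = 0.00527). Mir384, which was higher in 21D organoids, and Mir129-2, which was lower, also passed, but both were dim in every array, with no value above 3.48.

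**Figure D2:**
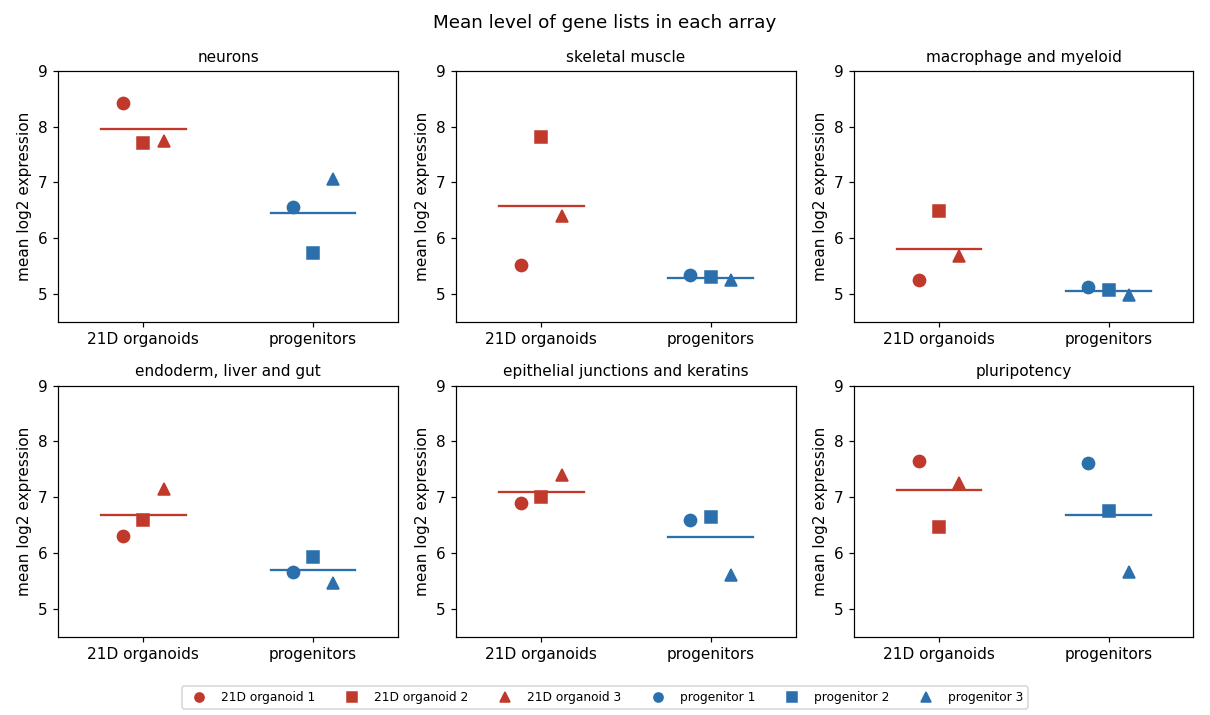
Mean log2 expression (vertical axes) of the measured genes of 6 lists in each array, with 21D organoids in red on the left and progenitors in blue on the right; horizontal lines mark group means and symbols mark replicates 1 to 3. Skeletal muscle genes ran from 5.51 to 7.82 among the 21D organoids, and pluripotency genes from 5.66 to 7.62 among the progenitors.

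Skeletal muscle genes rose unevenly. Of 34 genes, 16 (47.1%, background 6.52%) were significantly higher in 21D organoids and none was lower (median log2 change 1.07). Yet the mean level was 5.51, 7.82 and 6.39 in the 21D organoids, against 5.34, 5.29 and 5.25 in the progenitors. Myh3, the embryonic myosin heavy chain gene, measured 5.53, 10.3 and 7.96 in the 21D organoids, against 4.07, 3.62 and 3.43 in the progenitors (log2 change 4.18 ± 0.93, adjusted p = 0.00447). Acta1, skeletal alpha-actin, measured 7.66, 11.3 and 9.38 in the 21D organoids, against 6.32, 6.45 and 5.94 in the progenitors. Mymk, which drives fusion of myoblasts, measured 6.19, 9.72 and 7.34 in the 21D organoids, against 5.46, 5.03 and 4.84 in the progenitors. In all 3 genes 21D organoid 2 was far the highest and 21D organoid 1 was closest to the progenitors. A total of 17 members had an SD over 1 among the 21D organoids, and 21D organoid 2 was the highest array in 17 of 17. The number of upregulated members was 6 without 21D organoid 2, 10 without 21D organoid 3, 27 without 21D organoid 1, 7 without progenitor 2 and 10 without progenitor 3, and it was 1 when only the 12 progenitor and organoid arrays were fitted. Actc1, which the heart also uses, measured 7.92, 11 and 9.36 in the 21D organoids, against 4.26, 8.82 and 5.4 in the progenitors, and there the groups overlapped.

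Macrophage genes, too, were highest in 21D organoid 2. Lilrb4a, an inhibitory receptor of myeloid cells, measured 7.9, 10.5 and 8.95 in the 21D organoids, against 5.23, 4.74 and 4.16 in the progenitors (log2 change 4.38 ± 0.8, adjusted p = 0.000829). C1qb, a complement component made by macrophages, measured 6.53, 8.67 and 7.84 in the 21D organoids, against 5.64, 5.16 and 5.45 in the progenitors (log2 change 2.33 ± 0.53, adjusted p = 0.00533). For C1qb the groups did not overlap, and in both genes 21D organoid 2 was again the highest. Both genes were also high in ESCs, which averaged 9.23 for Lilrb4a and 7.59 for C1qb. E13.5 kidneys averaged 6.26 and 7.57. Of 30 macrophage and myeloid genes, 9 (30%, background 6.52%) rose and none fell. Their mean level was 5.24, 6.49 and 5.68 in the 21D organoids, against 5.13, 5.08 and 4.97 in the progenitors. Without 21D organoid 2 only 1 was called, without progenitor 2 only 2, and with the 12 progenitor and organoid arrays none. Genes of lymphoid and mast cells had no call among 20.

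Endothelial genes were partly higher, with 7 of 28 upregulated (25%, background 6.52%), 1 downregulated and a median log2 change of 0.49. Prox1, a factor of lymphatic endothelium that neurons also express, measured 7.39, 6.95 and 7.18 in the 21D organoids, against 5.55, 4.93 and 5.73 in the progenitors (log2 change 1.65 ± 0.29, adjusted p = 0.000599). Pecam1, which encodes the junction protein CD31, measured 7.84, 8.33 and 8.05 in the 21D organoids, against 7.92, 6.37 and 5.51 in the progenitors, and progenitor 1 lay within the range of the 21D organoids. It averaged 9.39 in ESCs and 9.11 in E13.5 kidneys. Emcn, the sialomucin endomucin, was lower, with 7.31, 8.11 and 8.22 in the 21D organoids, against 9.32, 9.49 and 9.29 in the progenitors (log2 change -1.45 ± 0.3, adjusted p = 0.00255). Cd34 measured 6.68, 8.72 and 7.94 in the 21D organoids, against 5.82, 6.8 and 6.47 in the progenitors (adjusted p = 0.0263); its call was lost without 21D organoid 2 (adjusted p = 0.152), 21D organoid 3 (0.0768) or progenitor 1 (0.098). Leaving out 21D organoid 1 gave 11 upregulated members, and leaving out 21D organoid 2 or 3 gave 4.

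Most kidney lineage genes did not pass the test, although the share called was above the background of 10.6% in several lists: 16% of nephron progenitor, 22.7% of renal vesicle, 24% of ureteric bud and 20.8% of podocyte genes. In the ureteric bud list of 25 genes, 3 were higher (Lhx1, Myb and Upk1b) and 3 were lower (Etv4, Etv5 and Spry1, which are also Fgf targets). Six2, a defining marker of nephron progenitors, was close to the receptor level in both groups. It measured 5.11, 5.6 and 5.9 in the 21D organoids, against 5.08, 5.36 and 5.32 in the progenitors (adjusted p = 0.705), whereas E13.5 kidneys averaged 9.74. Pax2, required for both nephron and duct lineages, measured 6.69, 5.6 and 5.53 in the 21D organoids, against 5.52, 4.42 and 6.47 in the progenitors (adjusted p = 0.45). Osr1, an early factor of intermediate mesoderm, was well expressed in both, with 9.15, 8.95 and 9.86 in the 21D organoids, against 9.76, 10.7 and 11 in the progenitors (adjusted p = 0.07). These 3 genes overlapped between the groups, as did Wt1, Sall1, Cited1, Ret, Gata3 and Hoxb7, none of which passed the test (adjusted p between 0.144 and 0.991). Foxd1, the stromal progenitor factor, was higher, at 5.69, 5.47 and 6.3 in the 21D organoids, against 4.57, 4.59 and 5.41 in the progenitors (adjusted p = 0.0292), but this was lost without 21D organoid 1 (adjusted p = 0.0575), 21D organoid 3 (0.141), progenitor 1 (0.119) or progenitor 2 (0.116). Against the markers of their label, the progenitors thus had Osr1 near the E13.5 kidney mean of 11, and Six2 and Pax2 far below their E13.5 means of 9.74 and 9.71.

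Of 25 genes of nephron progenitors and metanephric mesenchyme, 1 was higher and 3 were lower in 21D organoids (median log2 change 0.25), and between 0 and 4 were higher and between 1 and 5 lower when 1 array was left out. Meox1, a homeobox gene of mesoderm expressed in nephron progenitors, was 7.02-fold lower, with 5.08, 5.68 and 5.09 in the 21D organoids, against 6.7, 8.57 and 8.66 in the progenitors (log2 change -2.81 ± 0.36, adjusted p = 2.32e-05). Meox2, its relative, measured 5.16, 5.36 and 5.66 in the 21D organoids, against 5.46, 9.67 and 8.79 in the progenitors, so that progenitor 1 overlapped the 21D organoids. Its call was lost without progenitor 2 (adjusted p = 0.129). The adhesion receptor gene Itga8 was lower (log2 change -1.15 ± 0.36, adjusted p = 0.0399), and that call was lost without 21D organoid 1 (adjusted p = 0.203), progenitor 2 (0.148) or progenitor 3 (0.102). Uncx, a homeobox gene of the mesenchyme, was the one that rose, to 7.66, 6.44 and 6.88 in the 21D organoids, against 5.76, 5.63 and 5.93 in the progenitors; without 21D organoid 1 its adjusted p was 0.0626.

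Later stages of the nephron were represented by a few genes. Lhx1, a homeobox gene of the renal vesicle that spinal interneurons also express, was 4.19-fold higher, at 6.86, 6.42 and 6.79 in the 21D organoids, against 4.14, 4.5 and 4.55 in the progenitors (adjusted p = 0.0165). The groups did not overlap, though the adjusted p was 0.0579 without 21D organoid 1 and 0.0664 without progenitor 2. Osr2 measured 8.22, 9.25 and 8.03 in the 21D organoids, against 6.82, 6.57 and 6.92 in the progenitors (log2 change 1.76 ± 0.39, adjusted p = 0.00451). With Dll1 and Pou3f3, these made 4 of 22 renal vesicle and patterning genes upregulated, and 2 without progenitor 2. Papss2, an enzyme that supplies activated sulfate, was the 1 that fell, to 7.12, 7.17 and 8.51 in the 21D organoids, against 8.91, 10.1 and 11 in the progenitors. Neither Jag1 nor Cdh6 passed (adjusted p = 0.68 and 0.595). Of 24 podocyte genes 4 were higher and 1 was lower, led by Dach1 (log2 change 2.02 ± 0.36), and without progenitor 2 the number higher was 1, and 2 without 21D organoid 3.

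None of 28 proximal tubule genes was upregulated, and their median log2 change was -0.03. Slc22a6 and Slc22a8, organic anion transporters, lay between 4.92 and 5.13 in the 21D organoids, against 4.65 to 5.18 in the progenitors, at the level of the receptor genes, whereas adult kidneys averaged 12.1 and 10.4. Slc22a2, an organic cation transporter, measured 3.49, 3.85 and 3.63 in the 21D organoids, against 4.45, 4.39 and 4.2 in the progenitors, and although this small decrease passed (adjusted p = 0.013), both groups were dim and the call was lost without 21D organoid 1 (adjusted p = 0.0681) or progenitor 2 (0.0636). Lrp2 measured 7.53, 6.35 and 7.35 in the 21D organoids, against 7.65, 6.64 and 5.54 in the progenitors (adjusted p = 0.532), compared with 11.9 in adult kidneys. Aqp2 measured 5.68, 5.39 and 5.67 in the 21D organoids, against 5.65, 5.82 and 5.84 in the progenitors (adjusted p = 0.63). All 4 of the genes not passing overlapped between the groups. Hsd11b2, which inactivates glucocorticoids in the distal nephron and also in fetal tissues, was the clearest exception, at 7.96, 7.95 and 7.99 in the 21D organoids, against 6.62, 6.29 and 6.25 in the progenitors (log2 change 1.71 ± 0.33, adjusted p = 0.00132). It averaged 8.51 in 8D organoids, 8.9 in 14D organoids and 9.59 in adult kidneys. It was 1 of 2 upregulated genes among 29 of the loop, distal tubule and collecting duct, a share of 6.9%, near the background of 6.52%.

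**Figure D3:**
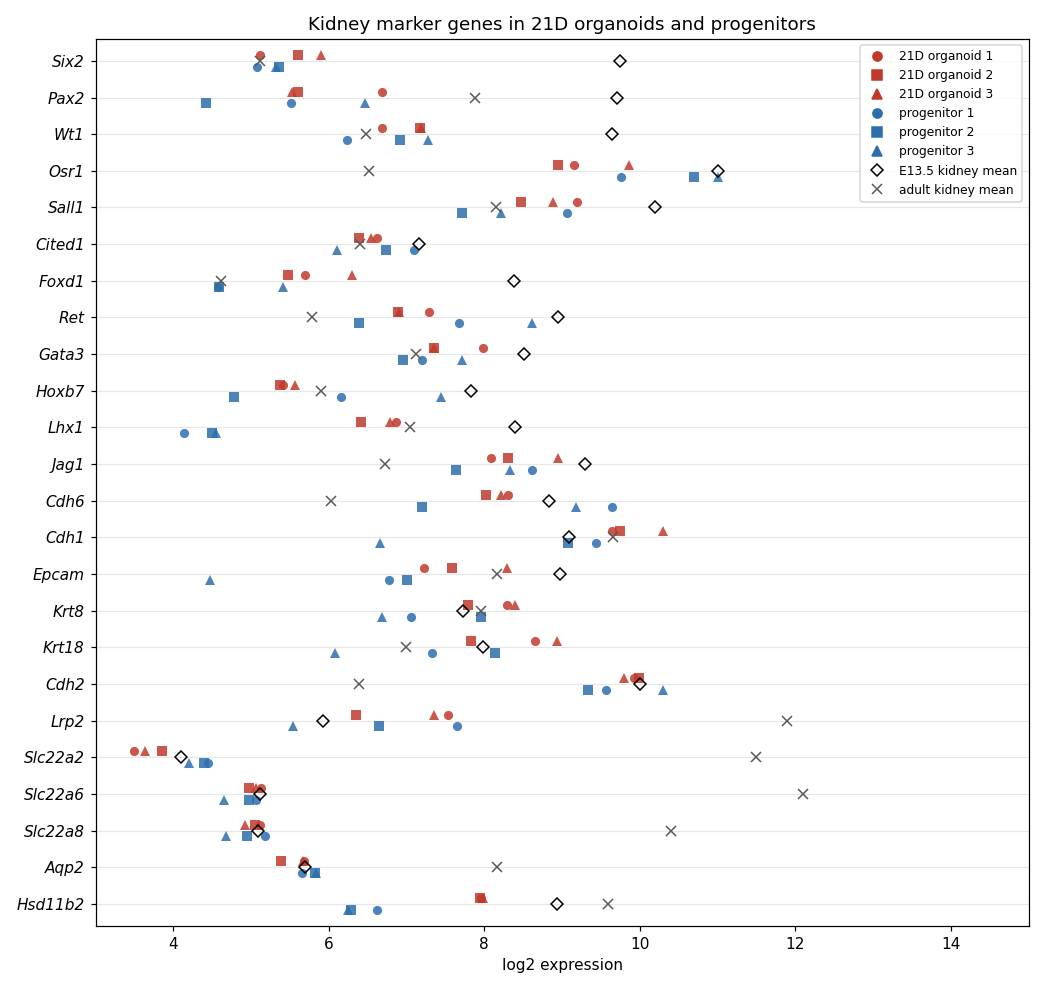
Log2 expression (horizontal axis) of 24 kidney genes in each array, with 21D organoids in red drawn above progenitors in blue, beside the means of E13.5 kidneys (open diamonds) and adult kidneys (crosses). Most red and blue points overlap, Lhx1 and Hsd11b2 are separated, and Slc22a2, Slc22a6 and Slc22a8 lie at or under 5.18 in all 6 arrays.

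Epithelial junction genes were higher in 21D organoids, with 10 of 30 upregulated, none downregulated and a median log2 change of 0.8. Cdh1, which encodes E-cadherin, measured 9.64, 9.75 and 10.3 in the 21D organoids, against 9.44, 9.08 and 6.66 in the progenitors (log2 change 1.53 ± 0.41, adjusted p = 0.0168). Epcam measured 7.23, 7.59 and 8.29 in the 21D organoids, against 6.78, 7 and 4.47 in the progenitors. The groups did not overlap in either gene, but progenitor 3 was far below the other progenitors, and for both genes the call was lost without it (adjusted p = 0.0839 for Cdh1 and 0.135 for Epcam) and without 21D organoid 3 (0.0723 and 0.0879). The number of upregulated members was 2 without progenitor 3 and 3 without 21D organoid 3. Cldn8, a claudin of the distal nephron and other epithelia, depended on neither, at 5.94, 7.07 and 6.65 in the 21D organoids, against 5.29, 5.09 and 4.43 in the progenitors (log2 change 1.55 ± 0.26, adjusted p = 0.000321). Krt8 and Krt18, keratins of simple epithelia, did not pass (adjusted p = 0.225 and 0.118), nor did the mesenchymal cadherin Cdh2, whose fitted change was near 0 (adjusted p = 1).

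Pluripotency genes were likewise lowest in progenitor 3. Their mean level was 7.65, 6.47 and 7.26 in the 21D organoids, against 7.62, 6.76 and 5.66 in the progenitors. Of 26 genes, 2 (Lefty2 and Sox2) were upregulated, a share of 7.69%, near the background of 6.52%. The number higher was 5 without progenitor 1, and 1 without 21D organoid 1, 21D organoid 3 or progenitor 2, and 2 genes were lower without progenitor 3. Nanog, a core factor of ESCs picked after its values were seen, measured 10.1, 8.32 and 9.32 in the 21D organoids, against 9.88, 8.48 and 5.21 in the progenitors, compared with 11.5 ± 0.27 (SD, n = 3) in ESCs and 4.52 in E13.5 kidneys. It was close to the receptor level only in progenitor 3. Zfp42 (9.04, 6.59 and 8.84 in the 21D organoids, against 9.68, 8.23 and 4.64 in the progenitors), picked in the same way, had the same order. The part of such cells in the differences of Cdh1, Epcam and Pecam1, which ESCs also express, was not tested.

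Notch, Wnt and retinoic acid signalling each had more upregulated than downregulated members, whereas hedgehog genes were mixed. Of 20 Notch genes, 9 rose and none fell, with a median log2 change of 0.59. Nrarp, a feedback target of Notch, measured 7.91, 7.64 and 7.81 in the 21D organoids, against 6.04, 5.52 and 5.88 in the progenitors (log2 change 1.98 ± 0.22, adjusted p = 4.63e-06). Hes5, a Notch-induced repressor of neuronal differentiation, measured 7.76, 6.57 and 7.86 in the 21D organoids, against 5.3, 5.37 and 5.46 in the progenitors (log2 change 1.98 ± 0.33, adjusted p = 0.000415). The groups did not overlap in either gene, and the ligand genes Dll1, Dll3, Dll4 and Jag2 were upregulated too. The mean level of the list was 7.58, 7.59 and 7.6 in the 21D organoids, against 6.95, 6.83 and 7.08 in the progenitors. Without progenitor 2, 5 members were called. The promoter of Hes5 is shown because it is a textbook target of the Notch effector Rbpj. The core letters of the Rbpj site, GTGGGAA on either strand, occur in the 250 bases before the start of 5.42% of 32851 RefSeq promoters (GRCm38.p6) and of 3 of the 14 Notch genes with a promoter there (Hes5, Hey2 and Lfng), and 1 of those 3 was called. Both matches are in capitals.
Hes5 (chr4:154960673-154960922, plus strand): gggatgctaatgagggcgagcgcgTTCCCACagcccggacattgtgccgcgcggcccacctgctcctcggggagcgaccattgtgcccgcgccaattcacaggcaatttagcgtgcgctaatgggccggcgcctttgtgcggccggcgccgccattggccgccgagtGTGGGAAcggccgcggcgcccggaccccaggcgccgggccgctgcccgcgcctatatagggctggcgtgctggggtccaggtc

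Wnt genes included 10 of 43 that rose (23.3%, background 6.52%) and 1 that fell (median log2 change 0.25). Wnt1, a ligand of the dorsal neural tube and midbrain, measured 7.76, 8.1 and 8.37 in the 21D organoids, against 6.3, 5.32 and 5.63 in the progenitors (log2 change 2.37 ± 0.36, adjusted p = 0.00012). The feedback targets Axin2, Lef1, Tcf7, Nkd1, Nkd2 and Rnf43 were upregulated as well, and 6 members were called without progenitor 2. Frzb, a secreted Wnt antagonist of mesenchyme, was the 1 that fell, to 7.05, 7.85 and 8.34 in the 21D organoids, against 9.55, 10.7 and 9.49 in the progenitors (log2 change -2.16 ± 0.4, adjusted p = 0.000982). Of 17 hedgehog genes, 4 rose and 2 fell. Shh, the hedgehog ligand of notochord, floor plate and endoderm, measured 9.62, 9.03 and 9.22 in the 21D organoids, against 7.62, 5.16 and 6.65 in the progenitors (log2 change 2.9 ± 0.42, adjusted p = 6.56e-05). Its receptor and target Ptch1 rose by 1.36 ± 0.26, although progenitor 1 (9.36) lay above 21D organoid 2 (9.28). The members that fell were Hhat, the acyltransferase that lipidates hedgehog ligands (log2 change -1.07 ± 0.16), and Boc, a hedgehog co-receptor (-1.25 ± 0.33). The call of Boc was lost without 21D organoid 1 (adjusted p = 0.0925), progenitor 2 (0.0834) or progenitor 3 (0.082). In the retinoic acid list 4 of 18 genes rose (22.2%, background 6.52%), and 2 without 21D organoid 2. Crabp2, a retinoic acid carrier, was 8.22-fold higher, with 9.1, 9.68 and 10.1 in the 21D organoids, against 6.33, 6.9 and 6.36 in the progenitors (adjusted p = 1.74e-06). Crabp1, its relative, measured 8.41, 8.79 and 9.05 in the 21D organoids, against 6.77, 6.22 and 5.21 in the progenitors (adjusted p = 1.31e-05). Crabp2 had already reached an average of 9.87 in 8D organoids.

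Feedback targets of Fgf and ERK signalling included more genes lower than higher in 21D organoids. Of 24 genes, 14 were not called, 9 fell and 1 (Fgfbp3) rose, with a median log2 change of -0.21 (background 4.11% downregulated). Spry2, an inhibitor induced by Fgf, measured 8.23, 8.16 and 7.97 in the 21D organoids, against 9.51, 9.9 and 10.1 in the progenitors (log2 change -1.84 ± 0.16, adjusted p = 1.54e-07). Spry4, a related inhibitor, measured 7.5, 7.63 and 7.7 in the 21D organoids, against 9.5, 9.63 and 9.48 in the progenitors (adjusted p = 1.95e-05). Dusp6, an ERK phosphatase picked after its values were seen, measured 9.1, 9.72 and 9.23 in the 21D organoids, against 11.1, 10.5 and 11 in the progenitors (adjusted p = 1.92e-05). None of these overlapped between the groups. Spry1, Spred1, Etv1, Etv4, Etv5 and Egr1 completed the 9, of which Etv5 measured 8.1, 7.85 and 7.75 in the 21D organoids, against 9.23, 9.18 and 9.03 in the progenitors. The mean level of the list was 7.46, 7.42 and 7.45 in the 21D organoids, against 7.95, 7.79 and 8.13 in the progenitors, with 7.71 in 8D and 7.63 in 14D organoids.

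The largest decreases were led by inflammatory receptors and acute phase genes. Of 32 genes of the acute phase and cytokine response, 16 fell (50%, background 4.11%) and none rose, with a median log2 change of -0.64. Between 12 and 16 were called when any 1 of the 6 arrays was left out. Osmr, a receptor subunit for oncostatin M, was 9.73-fold lower, with 6.53, 7.38 and 7.78 in the 21D organoids, against 9.39, 11.1 and 10.5 in the progenitors (log2 change -3.28 ± 0.33, adjusted p = 1.89e-06). Steap4, a cytokine-induced metalloreductase, measured 6.48, 6.91 and 6.7 in the 21D organoids, against 8.5, 10.3 and 9.81 in the progenitors (adjusted p = 4.83e-05). Cp, the copper carrier ceruloplasmin, measured 8.14, 7.77 and 7.79 in the 21D organoids, against 10.7, 9.24 and 10.4 in the progenitors (adjusted p = 0.000223). These 3 genes were among the 12 chosen for large decreases without overlap. Other members that fell encode the signal transducers Il6st and Stat3, the chemokines Ccl2, Ccl7, Ccl20, Cxcl1 and Cxcl5, and the iron-binding lipocalin Lcn2. Ly96, the partner of the endotoxin receptor, fell by 2.25 on the log2 scale. The interferon response list had 7 of 32 genes lower, 3 or 4 without any one of the 21D organoids and of progenitors 1 and 2, and 13 without progenitor 3.

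**Figure D4:**
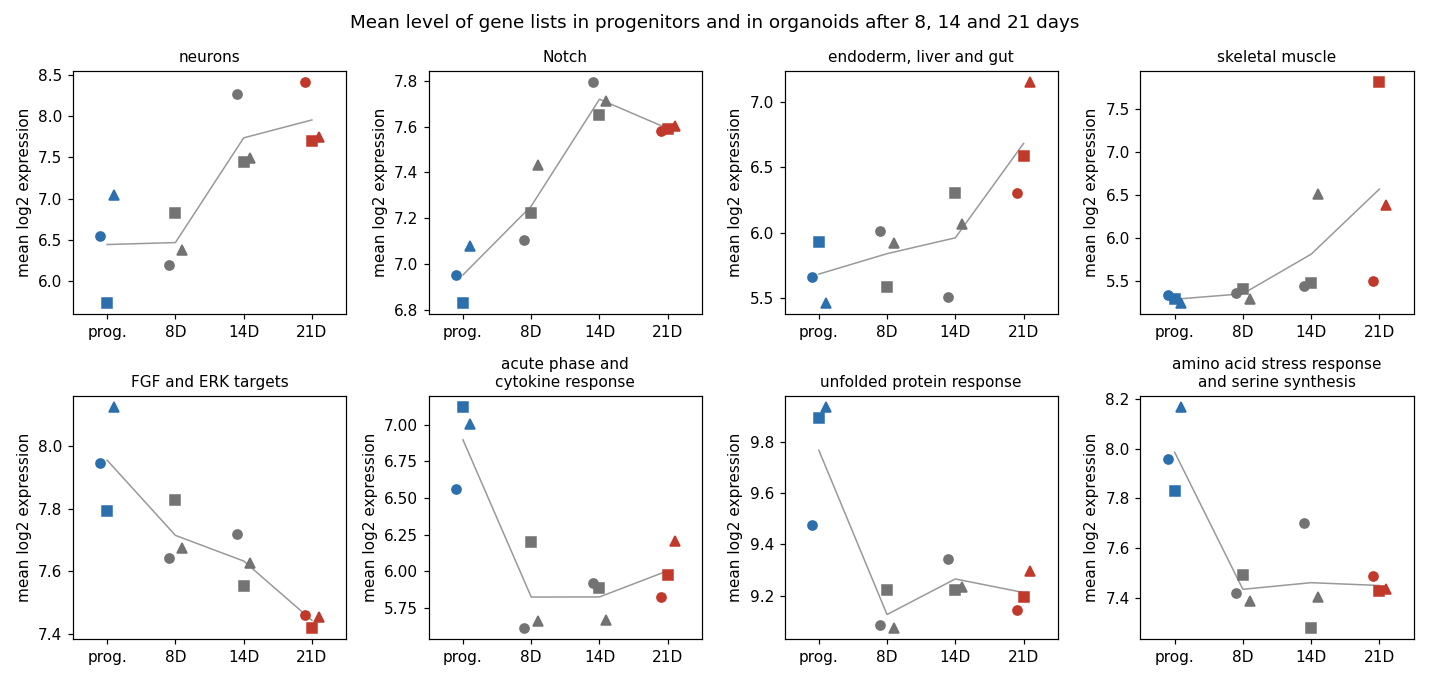
Mean log2 expression (vertical axes, each with its own range) of 8 gene lists in progenitors (blue), 8D and 14D organoids (grey) and 21D organoids (red), 1 point per array and a line through the group means. The neuronal list averaged 6.47 at 8D and 7.74 at 14D, whereas the acute phase, unfolded protein and amino acid lists were already at or below their 21D level at 8D.

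Protein-folding and amino acid stress genes were lower in 21D organoids. Of 19 genes of the unfolded protein response, 11 fell and none rose (median log2 change -0.57), and the mean level was 9.15, 9.19 and 9.3 in the 21D organoids, against 9.47, 9.89 and 9.94 in the progenitors. Hspa5, the endoplasmic reticulum chaperone BiP, measured 9.45, 9.41 and 9.55 in the 21D organoids, against 10.01, 10.3 and 10.5 in the progenitors (log2 change -0.81 ± 0.14, adjusted p = 0.000534). Herpud1, a factor of protein degradation from the endoplasmic reticulum, measured 9.52, 9.6 and 9.37 in the 21D organoids, against 10.2, 10.4 and 10.6 in the progenitors (adjusted p = 0.00161). Both were lower in every 21D organoid array. Creld2 (log2 change -0.87 ± 0.23) and Dnajc3 (-0.81 ± 0.18) fell to the same extent, and Creld2 had an adjusted p of 0.11 without progenitor 2. The number of members called was 6 without 21D organoid 1, 4 without progenitor 2 and 7 without progenitor 3.

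The promoters of 3 of these genes are printed because they carry the endoplasmic reticulum stress element, the paired site through which the stress factors Atf6 and Xbp1 are known to act. Its letters, CCAAT and CCACG with any 9 bases between them, on either strand, occur in the 250 bases before the start of 0.113% of the 32851 RefSeq promoters. They occur in 7 of the 17 listed genes with a promoter in that table, and the list holds many genes that are known for this element. Of the 7, Hspa5, Creld2 and Dnajc3 were called lower and Hsp90b1, Calr, Canx and Pdia6 were not, whereas 6 called genes had no match in this window. Capitals mark the element.
Hspa5 (chr2:34771840-34772089, plus strand): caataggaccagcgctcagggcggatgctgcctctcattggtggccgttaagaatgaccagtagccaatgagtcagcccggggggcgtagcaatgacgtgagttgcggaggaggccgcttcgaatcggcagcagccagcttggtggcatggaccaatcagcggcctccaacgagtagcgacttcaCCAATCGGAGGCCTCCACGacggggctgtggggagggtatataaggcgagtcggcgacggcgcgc
Creld2 (chr15:88819396-88819645, plus strand): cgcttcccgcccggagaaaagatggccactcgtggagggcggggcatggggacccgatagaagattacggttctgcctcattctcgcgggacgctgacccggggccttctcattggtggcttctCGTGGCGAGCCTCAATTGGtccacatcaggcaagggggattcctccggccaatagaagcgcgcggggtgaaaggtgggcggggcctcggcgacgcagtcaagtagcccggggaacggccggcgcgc
Dnajc3 (chr14:118937682-118937931, plus strand): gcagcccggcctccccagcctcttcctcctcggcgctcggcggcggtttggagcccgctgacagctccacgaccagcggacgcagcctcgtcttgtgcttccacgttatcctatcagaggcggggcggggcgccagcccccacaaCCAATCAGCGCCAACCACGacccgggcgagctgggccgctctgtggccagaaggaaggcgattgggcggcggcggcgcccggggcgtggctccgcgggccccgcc

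Of 27 genes of the amino acid stress response and serine synthesis, 9 fell and none rose (median log2 change -0.53), and 5 were called without progenitor 3. Ddit3, a stress-induced transcription factor, measured 7.58, 7.08 and 7.5 in the 21D organoids, against 8.38, 8.51 and 8.69 in the progenitors (log2 change -1.14 ± 0.18, adjusted p = 0.000193). Trib3, its pseudokinase target, measured 6.56, 6.69 and 6.73 in the 21D organoids, against 7.77, 7.47 and 8.03 in the progenitors (adjusted p = 0.000183). Neither overlapped between the groups, and Atf4, the transcription factor that drives this response, was among the 9. Immediate early genes were lower too, with 9 of 28 down and Nr4a2 alone up, and with 5 down without progenitor 3. Egr1, a serum- and growth factor-induced zinc finger gene, measured 6.53, 7.38 and 6.98 in the 21D organoids, against 8.74, 8.24 and 10.4 in the progenitors (adjusted p = 0.0155), a call lost without 21D organoid 1 (adjusted p = 0.0713) or progenitor 3 (0.118). Nr4a3 and Egr2 fell by 1.24 and 1.14 on the log2 scale.

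Matrix proteases and fat cell genes had more decreases than increases, whereas collagen, tendon and fibroblast, and cartilage genes did not. Among 31 matrix proteases and their inhibitors 10 fell (32.3%, background 4.11%) and none rose, with 4 called without 21D organoid 1 and 6 without progenitor 2. Adamts12, a matrix metalloprotease gene, measured 7.57, 8.53 and 8.13 in the 21D organoids, against 9.28, 10.6 and 10.5 in the progenitors (log2 change -2.11 ± 0.35, adjusted p = 0.00031). Of 26 collagen genes 1 was higher and 1 lower (3.85% each), and of 23 tendon and fibroblast genes 1 was higher (4.35%) and none lower. Of 24 cartilage genes 4 were higher (16.7%) and 1 lower (4.17%). Matrix glycoproteins and proteoglycans were mixed, with 6 of 41 higher (14.6%) and 9 lower (22%), and 3 lower without 21D organoid 1 or progenitor 2. The number higher was 3 without 21D organoid 2, 21D organoid 3 or progenitor 2. Lama5, the laminin chain of mature epithelial basement membranes, rose by 1.14 ± 0.23, whereas Lama4, the chain of mesenchyme and vessels, changed by -1.41 ± 0.23. Fn1, Col4a1 and Lama1 did not pass (adjusted p = 0.892, 0.242 and 0.142). Sned1, a matrix protein gene, measured 6.81, 7.2 and 6.82 in the 21D organoids, against 9.66, 10.1 and 9.58 in the progenitors (adjusted p = 6.52e-06). Pdgfd, a ligand of the Pdgf receptor of mesenchyme, measured 5.4, 5.41 and 5.1 in the 21D organoids, against 7.23, 6.88 and 8.32 in the progenitors.

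In the fat cell list 8 of 24 genes fell (33.3%, background 4.11%) and Fasn rose, and 5 fell without progenitor 3. Cd36, a fatty acid receptor, measured 5.72, 7.06 and 5.68 in the 21D organoids, against 8.45, 8.45 and 9.45 in the progenitors (log2 change -2.84 ± 0.39, adjusted p = 4.03e-05). Cebpa, a regulator of fat and liver cells, measured 5.67, 5.5 and 6.03 in the 21D organoids, against 6.94, 7.76 and 8.01 in the progenitors (adjusted p = 1.78e-05). Of 29 genes of the renin-angiotensin system and vasoactive peptides 6 fell, and 3 without 21D organoid 1, while none rose, and 5 without progenitor 3. Agtr1a, the main angiotensin receptor gene, was 6.28-fold lower, with 5.83, 6.51 and 6.08 in the 21D organoids, against 8.45, 8.83 and 9.04 in the progenitors (log2 change -2.65 ± 0.21, adjusted p = 1.54e-07). The groups did not overlap in Cebpa, and Agtr1a averaged 6.21 in 8D and 6.3 in 14D organoids.

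**Figure D5:**
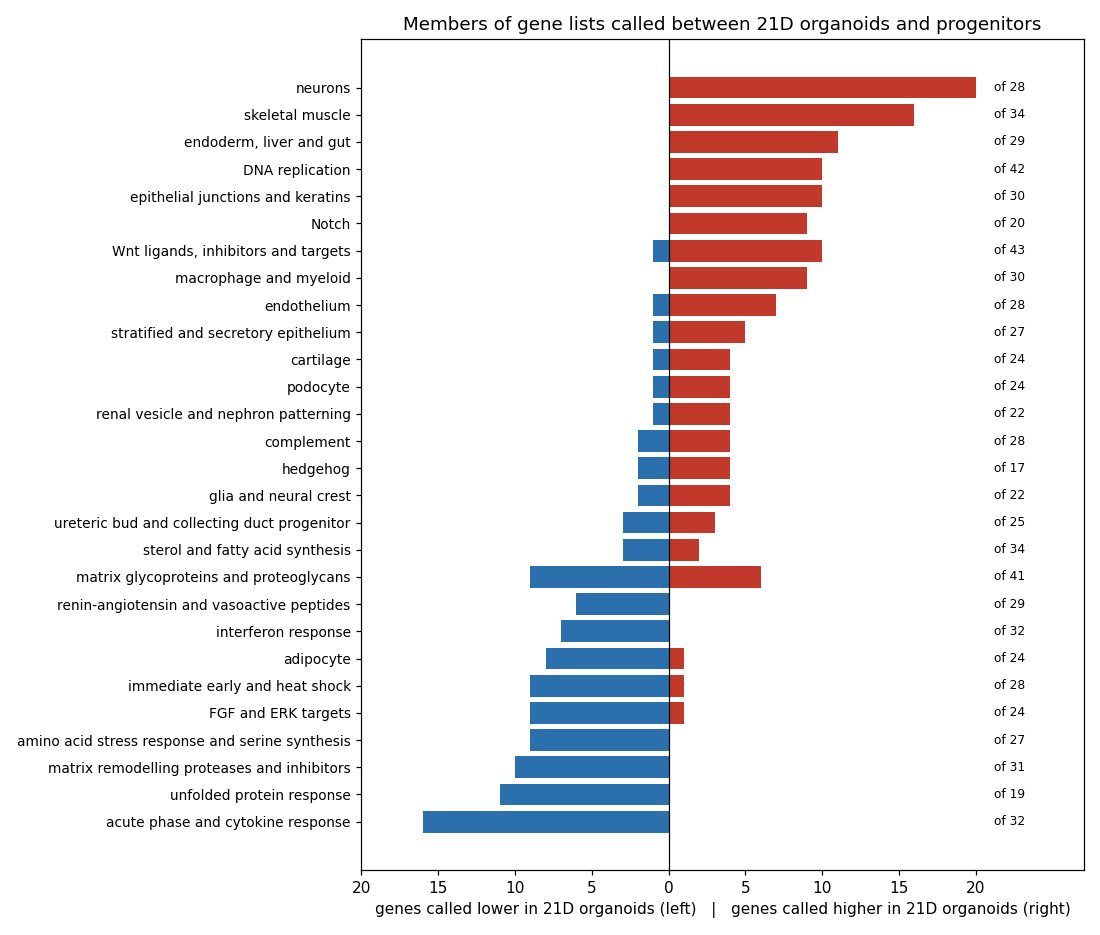
Number of genes significantly higher (red, to the right) and lower (blue, to the left) in 21D organoids for the 28 gene lists with at least 5 calls; the number of measured genes stands at the right. Neurons had 20 higher and the acute phase and cytokine response had 16 lower.

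Replication genes and mitotic genes differed in their counts. Of 42 DNA replication genes, 10 were upregulated, with a median log2 change of 0.27, but only 2 without 21D organoid 1 or progenitor 3 and 5 without 21D organoid 3. None of 46 mitotic genes was called, and their mean level was 8.14, 8.11 and 8.53 in the 21D organoids, against 8.7, 8.28 and 7.64 in the progenitors, where progenitor 3 was the lowest array. Without progenitor 1, 4 mitotic genes were higher, and without progenitor 3, 3 were lower. Ribosomal protein genes had 1 call among 41 and motile cilia genes none among 28.

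Each array was finally compared with whole kidneys over all genes. The correlation with embryonic kidneys (mean of 6 arrays, at E12.5 or E13.5) averaged 0.951 ± 0.0049 in the 21D organoids and 0.943 ± 0.0046 in the progenitors (SD, n = 3 each), a difference of 0.00837 (two-sided exact permutation p = 0.2). The correlation with adult kidneys averaged 0.825 ± 0.0068 in the 21D organoids and 0.827 ± 0.0045 in the progenitors, a difference of -0.00124 (exact permutation p = 0.9). With 3 arrays against 3 the smallest p this test can give is 0.1. The ranges overlapped for both, at 0.946 to 0.956 in the 21D organoids and 0.938 to 0.948 in the progenitors for embryonic kidneys.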

How the data were processed

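RNA of 30 samples, among them 3 of 21D organoids and 3 of progenitors, was hybridised to Affymetrix Mouse Gene ST arrays. The deposited values are log2 expression levels per gene, which the authors made by RMA with the oligo and limma packages; for package versions, probe annotation and batch correction before deposit the sources used here give nothing. No array column was left unmatched to a sample. Here, limma 3.58.1 in R 4.3.3 was fitted to all 30 arrays with 10 group means and the labelled batch as a term (19 residual degrees of freedom), so that all groups shared 1 estimate of the spread. The contrast was 21D organoids minus progenitors, with no filter, and p-values were adjusted by Benjamini-Hochberg over 23986 genes and called under 0.05. Errors of fold changes are standard errors (SE).

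The 55 gene lists (1415 of 1446 listed genes measured, 2 through an older symbol) and all comparisons were chosen with earlier results of these data known. Named genes were the 12 with the largest significant change in each direction whose groups did not overlap, up to 3 per list and direction, 26 kidney markers and 5 microRNA genes per direction. Nanog, Zfp42, Dusp6, Hspa5, Mir18, Mir124a-2, Mir124a-3 and the genes given only as members of a list, as well as those in the closing observations, were picked after their values were seen. Sequences came from RefSeq tables of GRCm38.p6, in which 440 of 511 microRNA rows were matched. Some single genes are not reported here. Alternatives (18) changed the arrays, batch term, filter, scaling, prior or threshold. The fit was tested on simulated data. Figures were drawn in Python 3.11.15 with matplotlib 3.10.9.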

Additional observations from a re-analysis of the deposited data

How the results depend on the processing

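Of the 2550 calls (1564 higher and 986 lower in 21D organoids), the 6 compared arrays alone gave 103 (85 higher and 18 lower) without a batch term and 131 (73 and 58) with one. The 12 arrays of progenitors and organoids gave 987 (528 and 459), and a log2 change of at least 1 left 962 (668 and 294). Leaving out 1 replicate gave 1393 to 3360 calls, 830 to 2036 of them higher and 494 to 1324 lower. The share of called genes that were higher was 61.3%, but 54.6% on the batch 2 arrays alone and 52.5% after quantile normalization. The difference in correlation with embryonic kidneys, 0.00837, was -0.00019 on centred genes and 0.00583 to 0.0109 without 1 replicate. The difference for adult kidneys, -0.00124, ranged between -0.00488 and 0.00187 without 1 replicate, was -0.136 on centred genes (exact permutation p = 0.1, the smallest possible; -0.257 to -0.168 in the 21D organoids, against -0.112 to -0.0684 in the progenitors), and was positive without 21D organoid 1 (0.00187) and without progenitor 3 (0.000476). The cause of these changes was not tested. With 3 arrays per group, whether replicate numbers paired the samples could not be decided. The deviations of same-numbered arrays correlated at 0.185, 0.117 and -0.0966, and those of differently numbered arrays at -0.261 to 0.177. With the replicate block 2231 genes were called. Named genes and lists lost their call or moved in some alternatives, and no named gene called in the main fit changed direction. Direction was not followed for named genes without a call. Many kidney transporters were dim in the 6 compared arrays, so small differences at that level may not have been measurable. Slc22a2, Slc22a6 and Slc22a8 averaged 11.5, 12.1 and 10.4 in adult kidneys, so these rows can read high. With 3 arrays per group, every comparison is limited.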

Other observations

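Genes of placental trophoblast, which were in no gene list and were picked after their values were seen, were high in 1 array. Prl3d1, which encodes placental lactogen I of trophoblast giant cells, measured 10.2, 4.58 and 3.69 in the 21D organoids, against 4.85, 5.33 and 4.25 in the progenitors. Prl4a1, a related prolactin family gene, measured 7.52, 3.01 and 3.1 in the 21D organoids, against 3.28, 3.73 and 3.55 in the progenitors. Prl7a1 and the placental cathepsin gene Ctsj both measured 7.33 in 21D organoid 1, and between 2.79 and 3.82 in 21D organoids 2 and 3. Among the 6 compared arrays, these 4 genes were thus well above the receptor level in 21D organoid 1 alone. They also varied among the earlier organoids. Prl3d1 averaged 6.37 ± 2.8 (SD, n = 3) in 8D and 6.38 ± 3.6 in 14D organoids, and Prl4a1 5.09 ± 3.3 and 4.81 ± 3.1.

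The ESC gene Tdgf1, a Nodal co-receptor, repeated the spread of Nanog among the progenitors, with 9.67, 7.61 and 8.99 in the 21D organoids, against 10.7, 7.87 and 4.02 in the progenitors. Of the 26 pluripotency genes, 10 had an SD over 1 among the progenitors, and progenitor 3 was the lowest array in 10 of 10. Fabp7, a fatty acid carrier of radial glia, set a different array apart, with 11.7, 11.3 and 11.3 in the 21D organoids, against 11.7, 7.1 and 11.2 in the progenitors.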
